A study of Mus musculus with 30 samples.

Results

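The Wnt and beta-catenin pathway of the blood-brain barrier was followed here through 10 mouse genes: the Wnt7 co-receptor genes Reck and Adgra2, the receptor genes Fzd4, Lrp5 and Lrp6, the transcription factor genes Lef1 and Tcf7, and the feedback target genes Axin2, Nkd1 and Apcdd1. They were chosen by name, with earlier results of these data known, as the receptor side and the responding side of one pathway. They came out of 48795 genes counted in each of 30 RNA-seq libraries. Each passed the filter on low counts that left 16844 genes for testing. The libraries were made from primary endothelial cells of the brain of untreated wild-type mice aged 2, 6, 12, 18 or 24 months, with 6 libraries at each age, 3 from males and 3 from females. The design asks how expression in these cells changes with age once sex is accounted for. The labels used here state neither how the cells were isolated nor whether a library pooled animals, so the p-values measure the spread between these libraries.

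Wnt7a and Wnt7b come mainly from neural progenitors, astrocytes and neurons, and reach brain endothelial cells from outside. Reck, a membrane-anchored protein, binds Wnt7, and Adgra2 (also called Gpr124), an adhesion receptor, joins it to present the ligand to a Frizzled receptor with Lrp5 or Lrp6. Beta-catenin is then spared from destruction and acts in the nucleus with Lef1 and Tcf factors. The pathway is known for inducing and keeping barrier properties in brain vessels, and some of its target genes, among them Axin2, Nkd1 and Apcdd1, encode proteins that restrain it.

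On GRCm38, as GENCODE M21 draws the genes, Reck lies at chr4:43875530-43944806, Adgra2 at chr8:27085583-27123436, Fzd4 at chr7:89404355-89413134, Lef1 at chr3:131110471-131224356, Axin2 at chr11:108920349-108950783 and Nkd1 at chr8:88521354-88594884, all on the plus strand. Lrp5 at chr19:3584828-3686564, Lrp6 at chr6:134446476-134566965 and Tcf7 at chr11:52252371-52283014 lie on the minus strand.

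RefSeq promoter windows on GRCm38.p6, from 250 bases before to 50 after a transcript start, matched 6 of the 10 genes, with 10 windows in all. The 10 windows were searched on both strands for 1 form of the core letters bound by Lef1 and Tcf factors, CTTTGA or its reverse complement TCAAAG. Shown are the window of Reck (chr4:43875280-43875579, plus strand), the gene with the steepest rise among the 10, that of Nkd1 (chr8:88527383-88527682, plus strand), the gene with the steepest fall, and the 1 window that held the letters, at an internal start of Lef1 (chr3:131156044-131156343, plus strand), with its 2 matches in capitals. Both the Nkd1 and this Lef1 window lie inside the gene as GENCODE M21 draws it.
Reck: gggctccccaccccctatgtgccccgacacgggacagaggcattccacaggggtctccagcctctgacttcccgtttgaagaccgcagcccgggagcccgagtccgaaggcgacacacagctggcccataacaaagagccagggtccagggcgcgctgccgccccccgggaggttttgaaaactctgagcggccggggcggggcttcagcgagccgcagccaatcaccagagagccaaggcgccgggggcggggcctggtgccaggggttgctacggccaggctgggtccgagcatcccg
Nkd1: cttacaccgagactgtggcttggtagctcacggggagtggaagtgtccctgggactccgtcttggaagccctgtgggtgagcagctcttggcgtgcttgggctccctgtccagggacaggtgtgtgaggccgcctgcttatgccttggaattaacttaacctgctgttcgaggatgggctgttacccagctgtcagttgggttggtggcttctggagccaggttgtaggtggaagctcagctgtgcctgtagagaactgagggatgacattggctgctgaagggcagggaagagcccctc
Lef1: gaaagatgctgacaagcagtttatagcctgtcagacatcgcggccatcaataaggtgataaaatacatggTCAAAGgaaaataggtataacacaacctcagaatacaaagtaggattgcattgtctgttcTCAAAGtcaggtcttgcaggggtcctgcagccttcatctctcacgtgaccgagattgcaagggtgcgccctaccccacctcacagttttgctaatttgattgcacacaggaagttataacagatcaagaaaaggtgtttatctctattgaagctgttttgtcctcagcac
The letters were present in 5257 of all 32851 windows of the table, 16.0%. A match describes these letters and no more, and other forms of the core were not searched. The windows of Reck and Nkd1 held neither CTTTGA nor TCAAAG, which does not show that they lack a core.

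Each library had between 24140980 and 50464366 counts in genes. Reads outside genes made up 3.82% to 6.61% of a library at 2 months and 7.99% to 13.1% at 18 months, and longer genes (those with exons above the median length) took between 71.0% and 75.2% of counts in the 3 female 6-month libraries, against 78.1% to 81.4% at 2 months. All 10 endothelial markers listed (Pecam1, Cdh5, Cldn5 and others) passed the filter, and their summed level lay between 13334 and 17968 CPM (a gene's counts scaled to the size of its library) in the 30 libraries. The sum weighs abundant genes most: Cldn5 averaged 4116 CPM and Erg 52.6 CPM. Along age Erg rose (log2 change over 22 months 1.14 ± 0.27, SE, edgeR adjusted p = 5.82e-03). Cldn5 fell (-0.59 ± 0.14, SE, edgeR adjusted p = 4.63e-03), and the other endothelial markers did not pass. Of the markers of other cells, 5 of 7 choroid plexus and 3 of 9 astrocyte genes fell with age, 3 of 8 pericyte genes and 1 of 6 smooth muscle genes rose, and no list had a gene at 0 in all libraries. Of the libraries, 24 were read as 50-base pairs on one sequencer and 6 as single 50-base reads on another. The labels used here do not say which 6, so read type cannot be told apart from age or sex where they coincide.

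Over the 5 ages the pathway changed unevenly: Reck rose, Nkd1 fell, and Adgra2 and Apcdd1 moved up and down between ages. Lrp6 rose and Tcf7 fell by their slopes, with calls that held in only 9 and 5 of 13 alternative fits. Slopes are log2 changes over the 22 months, from edgeR's quasi-likelihood test with sex as a covariate, with p-values adjusted by Benjamini-Hochberg over all 16844 genes and a threshold of 0.05. Along age, 4 of the 10 genes changed, 2 in each direction, where 10.9% of all genes tested did (5.72% higher and 5.22% lower). The median slope of the 10 genes was 0.17, against 0.03 over all genes. Since the genes were chosen with earlier results of these data known, their shares and median describe them and do not test the pathway. In bulk libraries fewer cells of a type and less RNA per cell cannot be told apart. Against 2 months, 3 of the 10 genes passed at 6 months, where 8.76% of all genes did, with 2 higher (background 4.07%) and 1 lower (background 4.69%). At 12 months 1 of the 10 passed (background 2.94%), and it was lower (background 1.56%). At 18 months 4 of the 10 passed (background 18.8%), 2 higher (background 10.1%) and 2 lower (background 8.7%). At 24 months 5 of the 10 passed (background 8.35%), 4 higher (background 4.86%) and 1 lower (background 3.48%). Levels without any overlap with the 2-month libraries were found at 6 months for Adgra2, higher (1.47% of all genes), and at 12 months for Nkd1, lower (1.13%). At 18 months Reck and Lrp6 were higher without overlap (4.69% of all genes) and Nkd1 lower (3.78%), and at 24 months Reck and Adgra2 higher (3.74%) and Nkd1 lower (2.76%). The shares over all genes were computed against 2 months only. Separations between other ages, given below for Adgra2, Lrp5, Lrp6, Tcf7, Nkd1 and Apcdd1, have no such background.

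Per kilobase of exon, the highest mean level over the 30 libraries was that of Nkd1, at 121 CPM per kilobase. Tcf7 followed at 85.1, Lef1 at 56.5 from partial counts, Reck at 44.3, Apcdd1 at 29.8 and Fzd4 at 23.8 CPM per kilobase. Far below lay Lrp6 at 6.13, Axin2 at 6.01 and Adgra2 at 5.38, and lowest Lrp5 at 1.13 CPM per kilobase. The place of Lef1 is uncertain, since its columns counted by strand sum to 1.82 times the counts used here. Neighbours in this order overlapped in their ranges over the 30 libraries, with 2 exceptions. The lowest Fzd4 library, at 10.7 CPM per kilobase, was above the highest of Lrp6, at 8.83, and the highest Lrp5 library, at 1.88 CPM per kilobase, was below the lowest of Adgra2, at 3.27.

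**Figure D1:**
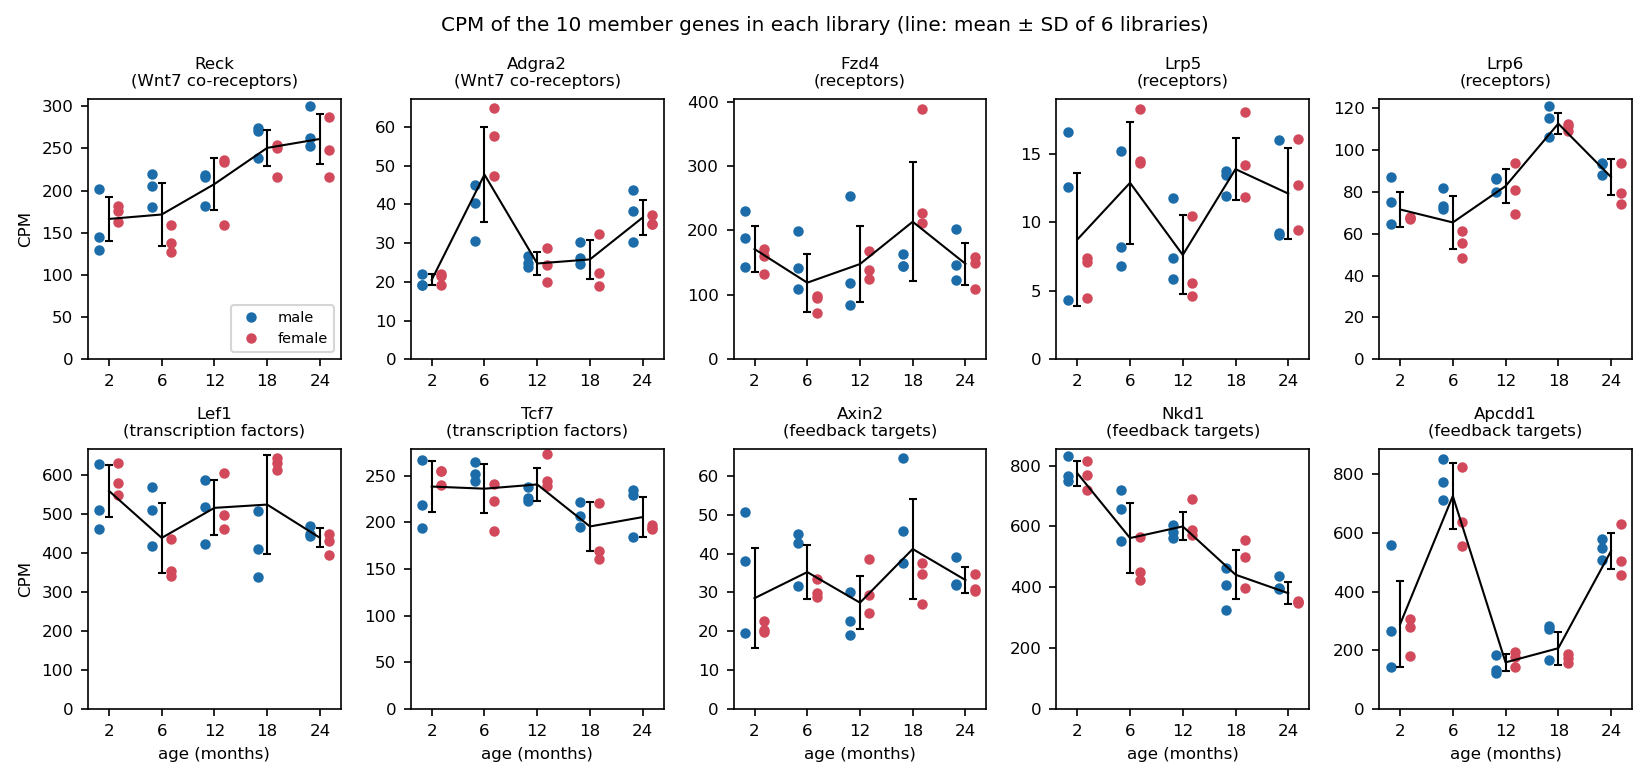
Expression of the 10 genes in CPM (vertical axis, from 0) against age in months, 1 panel per gene, with a point for each male (blue) and female (red) library and a line through the means with bars of ± 1 SD of 6 libraries. Reck climbs and Nkd1 declines across the ages, Lrp6 stands highest at 18 months, and Adgra2 and Apcdd1 are high at 6 and again at 24 months.

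Of the co-receptors, Reck rose with age, with little change from 2 to 6 months. Its lowest, median and highest libraries were at 129.9, 169 and 202 CPM at 2 months, 127, 170.3 and 219.8 CPM at 6 months, and 159.7, 218 and 236 CPM at 12 months. At 18 months they stood at 217, 252 and 274 CPM, and at 24 months at 216, 257 and 300.0 CPM. All 12 libraries of the 2 oldest ages were above every 2-month library, while the ages between 6 and 24 months overlapped one another. The mean was 166 ± 26.1 CPM at 2 months and 1.57 times that, 261 ± 29.9 CPM, at 24 months (SD, n = 6 each). The slope was 0.73 ± 0.11 (SE, edgeR adjusted p = 2.89e-05), and the 5 ages did not depart from a straight line beyond the threshold (edgeR adjusted p = 0.679). Against 2 months the log2 change was 0.59 ± 0.12 at 18 months (SE, edgeR adjusted p = 1.09e-03) and 0.65 ± 0.12 at 24 months (SE, edgeR adjusted p = 6.16e-04). At 6 months it was 0.03 ± 0.12 (adjusted p = 0.906) and at 12 months 0.32 ± 0.12 (adjusted p = 0.164).

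Adgra2, the partner of Reck, had a different course. Its 6 libraries at 2 months lay close together, with 19.2, 20.4 and 22.0 CPM as the lowest, median and highest. The same 3 values were 30.6, 46.3 and 65.0 CPM at 6 months and 30.3, 36.1 and 43.8 CPM at 24 months. Between these ages they were 20.0, 24.6 and 28.6 CPM at 12 months and 18.9, 25.4 and 32.4 CPM at 18 months. Every library at 6 and at 24 months exceeded every one at 2 months and at 12 months, and the 18-month libraries overlapped all other ages. The log2 change against 2 months was 1.21 ± 0.14 at 6 months (SE, edgeR adjusted p = 1.92e-06) and 0.84 ± 0.14 at 24 months (SE, edgeR adjusted p = 1.88e-04), and 0.27 ± 0.14 (adjusted p = 0.346) and 0.33 ± 0.14 (adjusted p = 0.104) at 12 and 18 months. A straight line did not describe it: its slope was 0.14 ± 0.24 (SE, edgeR adjusted p = 0.762), and the test of departure from a line gave an adjusted p of 1.18e-06, as for 3 of the 10 genes where 17.7% of all genes passed. The female 6-month libraries, at 47.4 to 65.0 CPM, were all above the 3 male ones, at 30.6 to 45.1 CPM. Without those 3 female libraries, a comparison added after seeing the data, the 6-month change was 0.89 ± 0.15 (SE, edgeR adjusted p = 1.54e-03).

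Among the receptors, Lrp6, one of the pair of low-density-lipoprotein-related co-receptors shared by most Wnts, was highest at 18 months. Its lowest, median and highest libraries were 64.7, 67.7 and 87.3 CPM at 2 months, 48.3, 66.6 and 81.9 CPM at 6 months, and 69.3, 83.5 and 93.7 CPM at 12 months. They reached 106, 112 and 121 CPM at 18 months and stood at 74.2, 90.7 and 93.8 CPM at 24 months. No 18-month library overlapped any library of another age, while the other 4 ages overlapped. Against 2 months Lrp6 rose by 0.66 ± 0.09 at 18 months on the log2 scale (SE, edgeR adjusted p = 9.23e-06) and by 0.28 ± 0.09 at 24 months (SE, edgeR adjusted p = 0.0492). Along age the slope was 0.56 ± 0.12 (SE, edgeR adjusted p = 3.41e-03), with a departure from a line (adjusted p = 6.46e-04). The reads outside genes were also most frequent at 18 months, and with their share as a covariate the slope was 0.29 (adjusted p = 0.287) and the 18-month change 0.53 (adjusted p = 0.0714), neither past the threshold. The slope was also short of the threshold with astrocyte, oligodendrocyte and choroid plexus marker levels as covariates (0.28, adjusted p = 0.484) and in either sex alone, where fewer libraries gave 0.45 in males and 0.66 in females (adjusted p = 0.140 and 0.0775). The 24-month call held in 8 of the 30 fits that left out 1 library, and was lost with no filter (0.129), with reads outside genes (0.23, adjusted p = 0.200) and with the marker levels (0.0936, adjusted p = 0.696).

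Lrp5, the other member of that pair, was the least abundant of the 10 genes, at 4.31 to 18.3 CPM over the 30 libraries. Its mean was 8.73 ± 4.86 CPM at 2 months, 12.9 ± 4.44 CPM at 6, 7.61 ± 2.88 CPM at 12, 13.9 ± 2.26 CPM at 18 and 12.1 ± 3.34 CPM at 24 months (SD, n = 6 each). The 18-month libraries lay above the 12-month ones, and all other pairs of ages overlapped. Neither the slope, 0.37 ± 0.29 (SE, edgeR adjusted p = 0.430), nor any age against 2 months passed. Without male 2-month replicate 3, the highest 2-month library at 16.6 CPM, the 18-month change was 0.95 (edgeR adjusted p = 0.0205), against 0.67 ± 0.30 (adjusted p = 0.116) with it. In Fzd4, the Frizzled receptor of Norrin that also takes part in Wnt7 signalling, the means were 171 ± 35.4, 119 ± 45.0, 148 ± 58.5, 213 ± 92.4 and 148 ± 32.3 CPM in order of age (SD, n = 6 each), and all ages overlapped. At 18 months the 3 female libraries were at 211 to 388 CPM and the 3 male ones at 145 to 163 CPM. Its slope was 0.20 ± 0.25 (SE, edgeR adjusted p = 0.654), and its change at 6 months, -0.53 ± 0.25, did not pass either (adjusted p = 0.184).

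**Figure D2:**
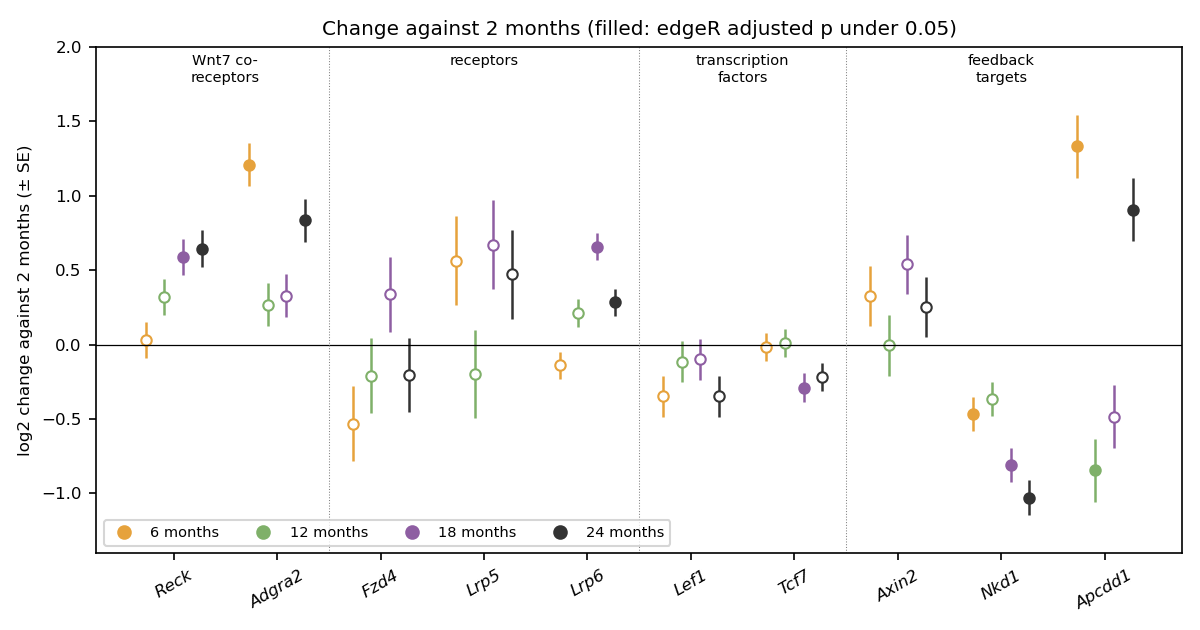
Log2 change of each of the 10 genes at 6, 12, 18 and 24 months against 2 months (vertical axis) with bars of ± 1 SE from edgeR, grouped by role, with filled points where the adjusted p was under 0.05. At 24 months Reck, Adgra2, Lrp6 and Apcdd1 are filled above 0 and Nkd1 is filled below 0, at -1.03.

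Both transcription factor genes moved little. Tcf7, which encodes the factor TCF1, had 194, 248 and 267 CPM in its lowest, median and highest 2-month libraries, 161, 201 and 222 CPM at 18 months and 185, 196 and 235 CPM at 24 months. The 18-month libraries were below the 12-month ones, which spanned 223 to 273 CPM, and otherwise the ages overlapped. Tcf7 fell by 0.28 ± 0.09 on the log2 scale along age (SE, edgeR adjusted p = 0.0411) and by 0.29 ± 0.10 at 18 months against 2 months (SE, edgeR adjusted p = 0.0327). The slope's call held in 15 of the 30 fits that left out 1 library, with adjusted p up to 0.0721 in the others, and in 5 of 13 alternatives. It was lost with reads outside genes (-0.19, adjusted p = 0.468) or the 3 marker lists (adjusted p = 0.272) as covariates, with no filter on low counts (0.0547), without the 2-, 18- or 24-month libraries (0.0731, 0.203 and 0.108) and in either sex alone. The 18-month call held in 23 of the 30 fits that left out 1 library (adjusted p up to 0.0903, without female 18-month replicate 3), and was lost with no filter (0.0626) and with reads outside genes (-0.30, adjusted p = 0.502). Its 24-month change, -0.22 ± 0.09, did not pass (adjusted p = 0.177).

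Lef1 had mean levels of 560 ± 66.9, 440 ± 88.9, 517 ± 70.7, 525 ± 128 and 439.9 ± 24.8 CPM in order of age (SD, n = 6 each). The ages overlapped throughout, and the 24-month libraries, from 395 to 469 CPM, were the tightest. No test passed: the slope was -0.17 ± 0.13 (SE, edgeR adjusted p = 0.443) and the 24-month change -0.35 ± 0.14 (adjusted p = 0.124). With the share of counts in long genes as a covariate the 24-month change was -0.32 (edgeR adjusted p = 0.0187) and the slope -0.31 (adjusted p = 0.0217). With the astrocyte, oligodendrocyte and choroid plexus marker levels as covariates the 24-month change was -0.58 (edgeR adjusted p = 0.0215). The counts of Lef1 are a partial measure, because the opposite-strand gene Gm43352 covers 13.7% of its exon bases and reads in shared exons were left out of the column that ignores strand. The columns counted by strand sum to 882799 counts over the 30 libraries, 1.82 times the 485909 of the column used. By that sum the means were 927 ± 96.1, 774 ± 136, 871 ± 105, 891 ± 203 and 777 ± 34.1 CPM in order of age (SD, n = 6 each), with 6 and 24 months again the lowest, and the slope was -0.12 (edgeR adjusted p = 0.553).

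**Figure D3:**
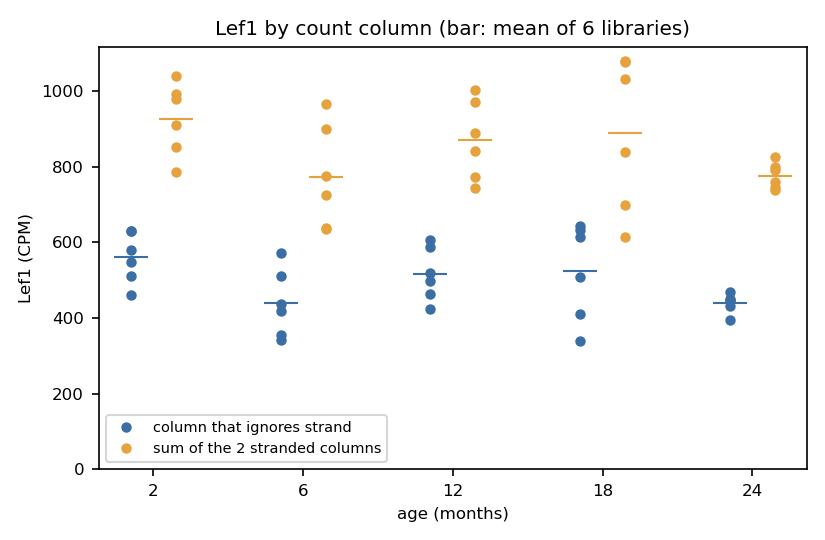
Lef1 in CPM (vertical axis, from 0) against age in months, from the count column that ignores strand (blue) and from the sum of the columns counted by strand (orange), with a point per library and a bar at the mean of 6. The stranded sum is higher at every age and both show overlapping ages, with means at 24 months of 439.9 and 777 CPM.

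The 3 feedback targets did not move together. Nkd1, whose product binds Dishevelled and restrains the signal, fell most of the 10 genes. Its lowest, median and highest libraries were 719, 769 and 830.3 CPM at 2 months, 425, 559 and 721 CPM at 6 months and 562, 586 and 689 CPM at 12 months. They were 327, 436 and 554 CPM at 18 months and 347, 376 and 438 CPM at 24 months. Every library from 12 months on lay below every 2-month library, and every 18- and 24-month library below every 12-month one. The mean at 24 months, 381 ± 35.8 CPM, was 49.1% of that at 2 months, 775 ± 41.3 CPM (SD, n = 6 each). The slope was -0.94 ± 0.11 (SE, edgeR adjusted p = 2.36e-06), with changes of -0.81 ± 0.11 at 18 months (SE, edgeR adjusted p = 1.27e-05) and -1.03 ± 0.12 at 24 months (SE, edgeR adjusted p = 4.18e-07). At 6 months the change was -0.47 ± 0.11 (SE, edgeR adjusted p = 0.0114). The female 6-month libraries, with the low share of long genes, were at 425 to 566 CPM and the male ones at 551 to 721 CPM, and without the female 3 the change was -0.25 (edgeR adjusted p = 0.460). With the share of long genes as a covariate it was -0.34 (edgeR adjusted p = 0.0785). At 12 months it was -0.37 ± 0.11 (adjusted p = 0.0742).

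Apcdd1, which encodes a membrane protein that binds Wnts and Lrp5 and inhibits the pathway, swung most. The gene lies on the plus strand at chr18:62922231-62961179 (GRCm38). At 2 months its lowest, median and highest libraries were 144, 273 and 561 CPM, and at 6 months 556, 744 and 851 CPM. They dropped to 123, 159.8 and 195 CPM at 12 months and 158, 181 and 284 CPM at 18 months, and stood at 458, 529 and 632 CPM at 24 months. Every 6- and 24-month library was above every 12- and 18-month library. The 2-month libraries overlapped all other ages, with male 2-month replicate 3 at 561 CPM and the other 5 at 144 to 306 CPM. Against 2 months the log2 change was 1.33 ± 0.21 at 6 months (SE, edgeR adjusted p = 1.92e-04), -0.85 ± 0.21 at 12 months (SE, edgeR adjusted p = 0.0235) and 0.91 ± 0.21 at 24 months (SE, edgeR adjusted p = 5.87e-03). At 18 months it was -0.48 ± 0.21 (adjusted p = 0.108). The departure from a line had an adjusted p of 1.20e-08, and the slope was -0.06 ± 0.41 (SE, edgeR adjusted p = 0.941). Leaving out male 2-month replicate 3 took the 12-month change to -0.57 (edgeR adjusted p = 0.0901), and leaving out female 2-month replicate 1, male 12-month replicate 1 or male 12-month replicate 3 also ended that call (adjusted p 0.0566 to 0.0639), as did using no filter (0.0597).

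Axin2, a scaffold of the complex that destroys beta-catenin and the most general of the feedback targets, had lowest, median and highest libraries of 19.5, 21.5 and 50.6 CPM at 2 months, 28.7, 32.6 and 45.1 CPM at 6 months and 19.0, 27.0 and 38.5 CPM at 12 months. They were 26.9, 37.5 and 64.5 CPM at 18 months and 30.4, 32.0 and 39.1 CPM at 24 months, so all ages overlapped. The slope was 0.28 ± 0.19 (SE, edgeR adjusted p = 0.382) and the 18-month change 0.54 ± 0.20 (adjusted p = 0.0594). The highest 2-month library was male replicate 1. It also held the highest summed levels at 2 months of the astrocyte markers (1330 CPM, against 487 in the lowest), the oligodendrocyte markers (935 CPM, against 133) and the microglia markers (1109 CPM, against 217), and the part of those cells in its Axin2 level was not tested. Without it the 18-month change was 0.75 (edgeR adjusted p = 6.85e-03).

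Set side by side, receptors and targets gave no single direction. For each library the mean log2 CPM of Axin2, Nkd1 and Apcdd1 was subtracted from that of Reck, Adgra2, Fzd4, Lrp5 and Lrp6. The difference spanned -2.06 to -1.55 at 2 months, -2.52 to -1.82 at 6, -1.63 to -1.11 at 12, -1.60 to -0.61 at 18 and -1.62 to -1.26 at 24 months. Its mean went from -1.81 ± 0.20 at 2 months to -2.03 ± 0.26 at 6, -1.36 ± 0.21 at 12, -1.07 ± 0.33 at 18 and -1.48 ± 0.13 at 24 months (SD, n = 6 each). The receptors' own mean moved from 5.65 at 2 months to 6.18 at 18 and 6.08 at 24 months, and that of the targets from 7.46 to 7.24 and 7.56. The 6-month libraries had the targets highest, at a mean of 7.91. Of the 3 targets only Apcdd1 was called higher at that age against 2 months (log2 change 1.33). Nkd1 was called lower (-0.47), and Axin2 did not pass (0.32, edgeR adjusted p = 0.328). With Lef1 and Tcf7 counted among the targets the change from 2 to 6 months was 0.0319 in place of -0.22, so its direction depends on which genes count as targets. These differences are a description with no test, since the genes were chosen with results of these data known.

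**Figure D4:**
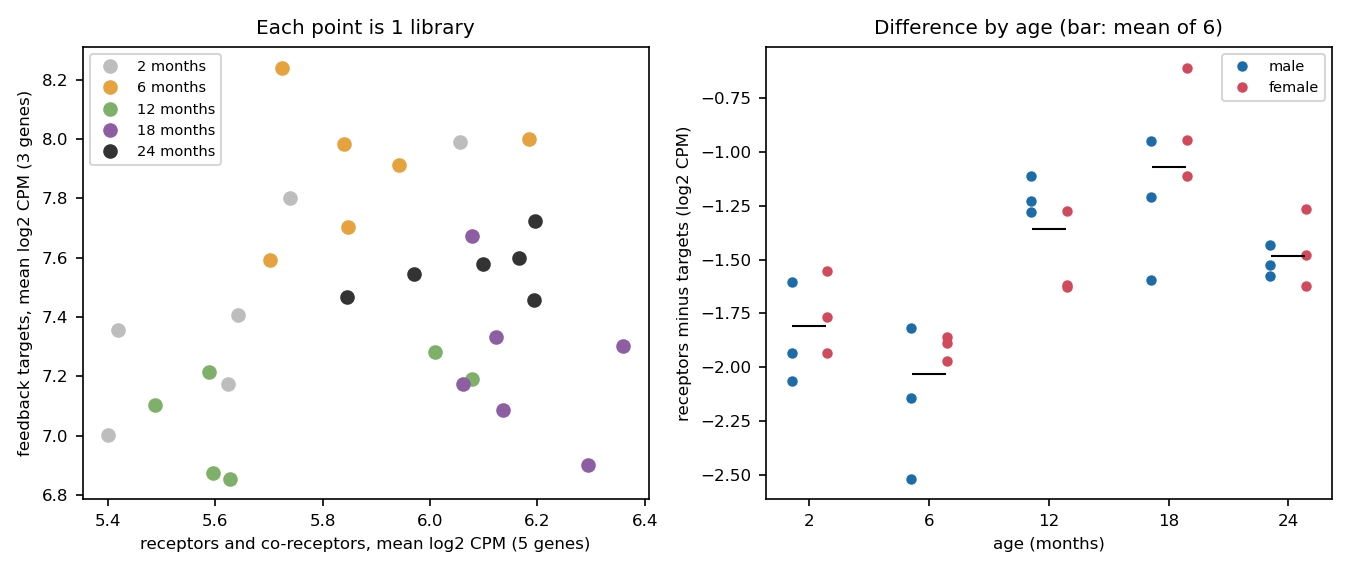
Left, mean log2 CPM of the 3 feedback targets (vertical) against that of the 5 receptors and co-receptors (horizontal), with 1 point per library coloured by age; right, their difference by age in months for male (blue) and female (red) libraries with a bar at the mean of 6. The 6-month libraries lie high on the target axis, where only Apcdd1 of the 3 targets was called higher against 2 months and Nkd1 was called lower. The difference is highest at 18 months, at a mean of -1.07, and lowest at 6 months, at -2.03.

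No difference between the sexes passed for the pathway. By edgeR none of the 10 genes differed between the sexes past the threshold, where 0.101% of all genes did. The log2 differences of male against female ran from -0.07 for Adgra2 to 0.30 for Axin2, 2 of the 10 had an unadjusted p under 0.05, and DESeq2 called none. None of the 10 slopes differed between the sexes by edgeR's interaction term either (0% of all genes, 916 with an unadjusted p under 0.05). Those differences ran from -0.80 ± 0.49 for Fzd4 to 0.52 ± 0.49 for Adgra2 (SE), none of the 10 had an unadjusted p under 0.05, and DESeq2 called none.

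Elsewhere in the pathway most genes did not pass. Of 86 further Wnt pathway genes listed, 74 were tested, and 4 rose and 3 fell along age, a share close to the background of 10.9%, with a median slope of 0.05. DESeq2 called 8 of them higher and 6 lower. Among 16 ligands tested, Wnt11 rose (1.04 ± 0.24, SE, edgeR adjusted p = 5.36e-03) and Wnt6 fell (-1.60 ± 0.39, SE, edgeR adjusted p = 7.45e-03). The ligands of the barrier were low: Wnt7a averaged 0.576 CPM, Wnt7b 2.03 CPM and Ndp, which encodes Norrin, 1.01 CPM, where 3 counts in a library correspond to 0.0594 to 0.124 CPM. Their slopes of -1.57 ± 0.95, -1.70 ± 0.60 and -0.53 ± 0.66 did not pass (edgeR adjusted p = 0.302, 0.0628 and 0.652). The call of Wnt11 held in 8 of 13 alternatives and was lost with the 3 marker lists as covariates (0.96, adjusted p = 0.110), without the 2- or 24-month libraries (0.0645 and 0.185) and in either sex alone. That of Wnt6 held in 7 of 13 and was lost with reads outside genes (-1.25, adjusted p = 0.233), with the marker lists (-1.22, adjusted p = 0.188), without the 2- or 18-month libraries (0.0906 and 0.0555) and in either sex alone.

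Of 14 other receptors and co-receptors, Fzd3 rose (0.62 ± 0.19, SE, edgeR adjusted p = 0.0347). Its call held in 7 of 13 alternatives and in 22 of the 30 fits that left out 1 library (adjusted p up to 0.0710, without female 2-month replicate 1). It was lost with reads outside genes (0.49, adjusted p = 0.347) or the marker lists (0.49, adjusted p = 0.437) as covariates, without the 2-month libraries (0.29, adjusted p = 0.515), without the 18-month ones (0.166) and in either sex alone. Tspan12, the tetraspanin that assists Norrin at Fzd4, had a slope of -0.24 ± 0.11 (adjusted p = 0.145) and was lower by 0.38 ± 0.11 on the log2 scale at 24 months than at 2 months (SE, edgeR adjusted p = 0.0283).

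Downstream, Apc, another scaffold of the destruction complex, was the 1 of 17 cytoplasmic genes that passed along age, with a slope of 0.68 ± 0.15 (SE, edgeR adjusted p = 2.66e-03) and means of 50.4 CPM at 2, 93.1 CPM at 18 and 66.7 CPM at 24 months. Like Lrp6 it was highest at 18 months, and with the share of reads outside genes as a covariate its slope was 0.30 (adjusted p = 0.315). The call was also lost with the 3 marker lists as covariates (0.43, adjusted p = 0.329), without the 2-month libraries (adjusted p = 0.0528) and in either sex alone. Ctnnb1, which encodes beta-catenin itself, averaged 1114 CPM and had a slope of -0.21 ± 0.10 that did not pass (adjusted p = 0.182). Of 11 nuclear genes, the co-repressor gene Tle2 rose from a mean of 30.6 CPM in the youngest to 65.2 CPM in the oldest mice (slope 1.03 ± 0.15, SE, edgeR adjusted p = 2.1e-05). Its relative Tle1 fell (-0.40 ± 0.11, SE, edgeR adjusted p = 0.0132), as did Ctnnbip1, an inhibitor of the binding of beta-catenin to Tcf factors (-0.46 ± 0.08, SE, edgeR adjusted p = 4.22e-04). The call of Tle1 held in 7 of 13 alternatives and was lost with reads outside genes (-0.29, adjusted p = 0.286) or the marker lists (-0.37, adjusted p = 0.264) as covariates, without the 2- or 18-month libraries (0.186 and 0.0929) and in either sex alone. That of Ctnnbip1 was lost with the marker lists (adjusted p = 0.0689), without the 2-month libraries (-0.31, adjusted p = 0.0880) and in males alone (0.0786), and that of Tle2 in males alone (0.84, adjusted p = 0.111). Tcf7l1 and Tcf7l2, the other Tcf genes, had slopes of -0.06 ± 0.10 (adjusted p = 0.741) and 0.33 ± 0.11 (adjusted p = 0.0533). None of 16 tested inhibitors at the membrane or outside the cell passed by edgeR, 4 had an unadjusted p under 0.05, and DESeq2 called 1 higher and 1 lower.

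Of 13 barrier genes linked to beta-catenin, 3 fell along age by edgeR, where 5.22% of all genes did. None rose by edgeR or DESeq2 and none was higher at an unadjusted p under 0.05. The median slope was -0.20 against 0.03 over all genes. This list too was chosen with earlier results of these data known. Those that fell were Cldn5, the main tight junction claudin of brain vessels (-0.59 ± 0.14, SE, edgeR adjusted p = 4.63e-03), Mfsd2a, a lysolipid transporter that limits transcytosis (-0.63 ± 0.10, SE, edgeR adjusted p = 5.7e-05), and Slco1c1, a thyroid hormone transporter (-0.32 ± 0.08, SE, edgeR adjusted p = 5.17e-03). Mfsd2a averaged 1075 CPM in the youngest mice and 662 CPM in the oldest. All 3 are among the 12 genes of the list that beta-catenin signalling raises, whose median slope was -0.19. Plvap, the 1 gene of the list that it lowers, had a slope in the same direction, -0.88, that did not pass. Choroid plexus markers fell with age too (5 of 7 called), and their part in the Plvap slope was not tested. Sox17, a transcription factor gene reported as a beta-catenin target in vessels, had a slope of -0.05 ± 0.12 (adjusted p = 0.822). With the share of reads outside genes as a covariate the calls of Cldn5 and Slco1c1 were lost (-0.34 and -0.24, adjusted p = 0.293 and 0.158) and that of Mfsd2a held. Those of Cldn5 and Slco1c1 were also lost with the 3 marker lists as covariates (adjusted p = 0.225 and 0.114) and in males alone (0.288 and 0.499), where the call of Mfsd2a was lost too (-0.49, adjusted p = 0.102).

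**Figure D5:**
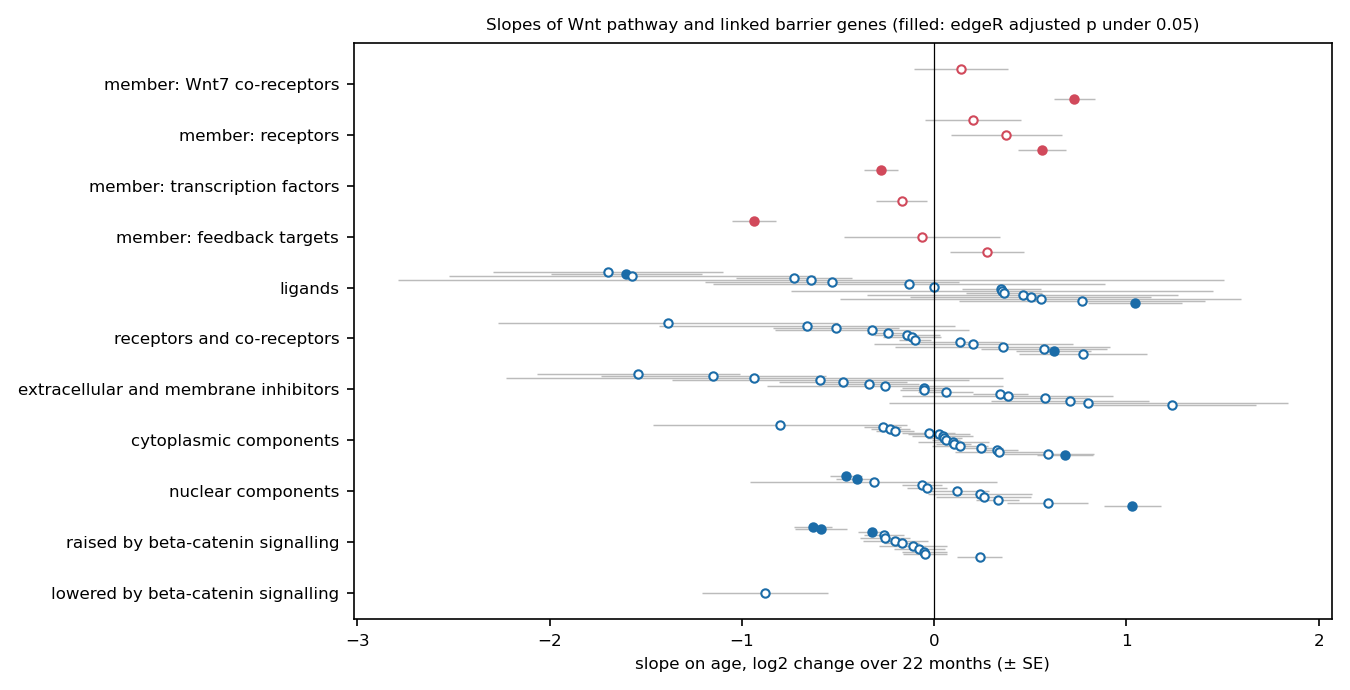
Slope on age as a log2 change over 22 months (horizontal axis, bars of ± 1 SE) for the 10 genes of the barrier pathway (red) and for the further Wnt and linked barrier genes (blue), 1 point per tested gene and 1 row per role, filled where the edgeR adjusted p was under 0.05. Filled points lie on both sides of 0 among the 10 genes and the nuclear components, and below 0 among the genes raised by beta-catenin signalling.

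Across the 30 libraries, the tested genes whose log2 CPM tracked the 4 genes with a slope most closely were these. For Reck they were Ampd3 (Pearson r = 0.85), Ric3 (0.85) and Cp (0.84), for Lrp6 they were Mecom (0.89), Bmpr2 (0.89) and Nbeal1 (0.88). For Nkd1 they were Nrep (0.86), Ctnnbip1 (0.82) and Dok4 (0.82), and for Tcf7 they were Phc2 (0.85), Cdc42ep1 (0.81) and N4bp3 (0.76). The points share their libraries and depth, and the values are a description. Ctnnbip1 is the 1 gene of these 12 that is also in the list of Wnt pathway genes.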

How the data were processed

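RNA was measured by full-length cDNA sequencing (SMART-Seq v4 with Nextera XT, a kit that marks neither strand nor molecules, per the labels' protocols). The authors deposited 1 table of raw counts per gene for each of the 30 libraries, made with STAR 2.5.2b on GRCm38 (mm10), with FastQC 0.11.4, MultiQC and HTSeq also named, per the submitters' processing notes. The sources used here name no annotation release, and coordinates and exon lengths come from GENCODE M21. The column that ignores strand was used. Its 4 lines that name no gene were set aside.

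Genes were filtered by edgeR's filterByExpr by age (minimum count 10, minimum total 15), leaving 16844 and setting aside 31951. At least 99.9% of each library's counts were kept. Counts were scaled by TMM and tested with edgeR 4.0.16 in R 4.3.3 (robust quasi-likelihood fits, all 30 libraries, sex as covariate, Benjamini-Hochberg over all genes), with age in months, age contrasts against 2 months, a joint test of 3 further polynomial terms, sex, and their interaction. Log2 CPM used a prior count of 2. A slope's SE is the fitted change divided by the square root of F. The fits were tested on simulated data. DESeq2 1.42.0 and other filters, scalings, covariates and libraries were tried, and the closing section gives their effect. The text names all 10 genes, those of the other 2 lists that passed along age, 8 further genes named for their role as ligands, partners or factors, and the 3 genes most like each gene with a slope. Plvap is given as the 1 listed gene that beta-catenin lowers. The closing section names further listed genes, chosen after their values were seen. Members and lists were chosen with earlier results of these data known. Replicate numbers follow accession order and pair nothing. Counting intervals and detection limits (3 counts) cover counting error only.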

Additional observations from a re-analysis of the deposited data

Results flagged for a closer look

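Within an age, 1 library stood far from the other 5 in 3 of the 50 groups checked (10 genes at 5 ages), about what a rate of 1 in 20 gives by chance. Fzd4 at 18 months was 388 CPM in female replicate 3, against 145 to 227 CPM in the others. Lrp5 at 18 months was 18.1 CPM in female replicate 2, against 11.9 to 14.1 CPM. Nkd1 at 12 months was 689 CPM in female replicate 3, against 562 to 605 CPM.

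Each pathway gene was compared with its 2-month level at each later age. In 5 of these comparisons the sexes moved in opposite directions. Every male library lay on one side of the male 2-month mean and every female library on the other side of the female mean. The ratio of means was 1.27 in males and 0.815 in females for Reck at 6 months, and 1.12 and 0.873 for Tcf7 at 6 months. It was 0.662 and 1.47 for Axin2 at 12 months, 0.807 and 1.78 for Fzd4 at 18 months, and 0.786 and 1.08 for Lef1 at 18 months. These differences at single ages were not tested, and the share of all genes with this pattern was not computed. Whether 5 such comparisons are more than a background would give can therefore not be told. The slopes of these genes did not differ between the sexes past edgeR's threshold (lowest adjusted p = 0.876).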

How the results depend on the processing

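The slopes of Reck and Nkd1 kept their direction and their call in all 13 alternatives and in each of the 30 fits that left out 1 library (Reck 0.65 to 0.85, Nkd1 -1.01 to -0.81 over the alternatives). So did the 6- and 24-month changes of Adgra2 and Apcdd1, under the alternatives run for them. The marker covariates were astrocyte, oligodendrocyte and choroid plexus levels. Pericyte and smooth muscle levels, whose lists held genes that rose with age, were not used as covariates, and their part was not tested. No paired analysis was possible because the labels number no replicates. Each library's title opens with a code of a number and a letter, whose meaning the labels do not state. No such code was shared between ages, and from 6 months on none was shared between the sexes. Whatever the codes stand for cannot be told apart from age or, at those later ages, from sex. The alternatives at 6 months with long genes or without female libraries, at 18 months with reads outside genes, and those with the stranded sum at ages other than 24 months, were chosen after seeing the data.

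Counts of genes called moved with the processing, and the cause was not tested. Along age they went from 1843 to 402 with the share of reads outside genes as a covariate, 259 with 3 marker lists, 886 without the 2-month libraries and 713 without the 18-month ones, and to 196 in males alone and 623 in females alone, where fewer libraries were fitted. At 6 months 1476 became 967 with no filter, 832 with the share of long genes, and 220 without the 3 female 6-month libraries. At 12 months 495 became 902 by DESeq2, at 18 months 3163 became 214 with reads outside genes, and at 24 months 1406 became 2169 with long genes. Departures from a line went from 2989 to 1746 without the female 6-month libraries, interaction calls from 0 to 7 with no filter, and sex calls from 17 to 51 by DESeq2. Leaving out 1 library gave 737 to 2184 at 6 months, 328 to 571 at 12 months, 1894 to 3730 departures and 14 to 26 sex calls.

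Of the 10 genes, 2 in place of 4 were called along age with reads outside genes, with marker lists, and in either sex alone. At 12 months 0 in place of 1 were called with no filter and 2 by DESeq2, and at 18 months 2 in place of 4 with reads outside genes. Leaving out 1 library gave 0 to 2 at 12 months and 3 to 5 departures. The change of receptors minus targets from 2 to 24 months was 0.33, and 0.48 with Lef1 and Tcf7 among the targets, where the change from 2 to 6 months turned from -0.22 to 0.0319.

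Some values changed sign, and none passed where its sign had turned. For slopes, Adgra2 was -0.43 without 2 months, -0.32 without 24 months and -0.12 in females. Fzd4 was -0.10 with reads outside genes, -0.0831 with long genes, -0.11 with marker lists, -0.0312 without 18 months and -0.20 in males. With reads outside genes Lrp5 was -0.0408 along age and -0.0365 at 18 months, and Axin2 -0.0747 along age. Apcdd1 was 0.34 with reads outside genes, 0.15 with long genes, 0.47 with marker lists, 0.23 without 18 months and 0.0264 in females, and -1.96 without 24 months (adjusted p = 0.0402). Ndp was 0.59 with marker lists, Tcf7l1 0.0587 without 2 months, and Sox17 0.10 with reads outside genes, 0.0215 without 18 months and 0.14 in males. Against 2 months, Lrp6 at 6 months was 0.0289 without the female 6-month libraries, and Tcf7 at 6 months was 0.0322 with upper-quartile scaling, 0.0769 with long genes and 0.0832 without those libraries. Axin2 at 12 months was 0.00889 with upper-quartile scaling and 0.000389 with no filter. Leaving out 1 library took the Apcdd1 slope from -0.226 to 0.0782, that of Ndp from -0.858 to 0.0199, Reck at 6 months from -0.0447 to 0.102 and Tcf7 from -0.0774 to 0.0356. At 12 months it took Tcf7 from -0.0452 to 0.044, Axin2 from -0.157 to 0.192 and Lrp5 from -0.377 to 0.0912, and Lef1 at 18 months from -0.16 to 0.00438.

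Single libraries also decided calls near the threshold. The slope of Tcf7 was lost without any 1 of 15 libraries (adjusted p from 0.0506 to 0.0721, the highest without female 2-month replicate 3), and the 24-month change of Lrp6 without most libraries (up to 0.136, without female 24-month replicate 2). Calls were gained for Adgra2 at 18 months without female 18-month replicate 3 (0.41, adjusted p = 0.0406), Lef1 at 6 months without male 6-month replicate 2 (-0.44, adjusted p = 0.0358), Apcdd1 at 18 months without male 2-month replicate 2 (-0.63, adjusted p = 0.0233) and Nkd1 at 12 months without male 18-month replicate 2 (-0.37, adjusted p = 0.0485). For Axin2 at 18 months 5 single omissions gave a call, of which the strongest was male 2-month replicate 1 (0.75) and the others male 2-month replicate 3, male and female 12-month replicate 3 and female 18-month replicate 3 (adjusted p from 0.0407 to 0.0460).

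Lrp5 had the fewest counts of the 10 genes, 11019 over the 30 libraries. Depth limits Wnt7a and Ndp, which had libraries at 0. Reads outside genes were most frequent at 18 months, so that covariate and age cannot be told apart there.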

Other observations

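Further Wnt genes changed at single ages, chosen here after their values were seen. Against 2 months, 8 of the 74 other pathway genes rose and 8 fell at 18 months, where 18.8% of all genes passed. Sfrp1, a secreted Wnt-binding inhibitor, fell by 1.21 ± 0.36 on the log2 scale at 18 months (SE, edgeR adjusted p = 0.0192), and Sostdc1, a secreted inhibitor that binds Lrp6, by 1.96 ± 0.59 (SE, edgeR adjusted p = 0.0200). The summed level of the 7 choroid plexus markers ran from 2302 to 8403 CPM at 2 months and from 559 to 2394 CPM at 18 months, and its part in these falls was not tested. Wls, the carrier that Wnts need for secretion, fell by 0.46 ± 0.10 (SE, edgeR adjusted p = 1.05e-03). Gsk3b, the kinase that marks beta-catenin for destruction, rose at 6 months (0.43 ± 0.10), 18 months (0.37 ± 0.10) and 24 months (0.48 ± 0.10, SE, edgeR adjusted p = 8.04e-03, 8.27e-03 and 1.63e-03). Wnt5a, a ligand best known for signalling without beta-catenin, fell at 6 months (-0.75 ± 0.17) and 12 months (-0.61 ± 0.17, SE, edgeR adjusted p = 7.56e-03 and 0.0480). Of the 74 genes, 7 passed at 6 months and 3 at 12 months, where 8.76% and 2.94% of all genes did. Without the 3 female 6-month libraries 220 in place of 1476 of all genes were called at 6 months. At 18 months 214 in place of 3163 were called with the share of reads outside genes as a covariate. For the single genes named in this paragraph no alternative fits are given.

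Of the barrier genes linked to beta-catenin, 6 of 13 fell and 1 rose at 18 months against 2 months, where 8.7% of all genes fell and 10.1% rose. With the share of reads outside genes as a covariate, 214 in place of 3163 of all genes were called at that age. Foxq1, a transcription factor gene of brain endothelium, fell by 0.46 ± 0.14 (SE, edgeR adjusted p = 0.0172), and Plvap, the diaphragm protein of leaky vessels that beta-catenin lowers, fell by 1.24 ± 0.38 (SE, edgeR adjusted p = 0.0201). Abcb1a, which encodes the efflux pump P-glycoprotein, rose by 0.32 ± 0.11 (SE, edgeR adjusted p = 0.0445).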
